A study of Mus musculus with 9 samples.

Results

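The 10 genes described here encode the GATA and Tal1 transcription factor network of the erythroid, megakaryocyte and mast cell lineages: Gata1, Gata2, Zfpm1, Tal1, Lyl1, Lmo2, Ldb1, Klf1, Nfe2 and Gfi1b. They were chosen by name and function from the 37980 genes of the deposited table, but with earlier results of these data known. All 10 were found in it, and all 10 passed the filter on low values that left 11987 genes tested. RNA-seq was performed on myeloid progenitors (MPs, Lin-c-kit+Sca1- cells of bone marrow), 100000 sorted cells per sample, from mice that had received multipotent progenitors (MPPs).

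The 4 NA MP samples were Tdtomato+ cells descended from MPPs of NA LSL/+; Vav-Cre mice on the C57BL/6 strain. These mice express the Nup98-Hoxa10hd fusion gene (NA) from the Rosa26 locus after Cre, driven by the Vav promoter, removes a stop cassette in blood-forming cells. The 5 WT MP samples were CD45.2+ cells from C57BL/6 recipients of WT MPPs. All recipients were adult, irradiated, and given helper bone marrow cells with the MPPs. The labels place both sorts 3 months after transplantation, whereas the methods of the study name a later month. The recipients also carried CD45.2, so the WT sort by itself does not tell donor cells from helper or host cells. In other assays the study traced WT donor cells by CD45.1, and if these donors carried that allele alone, a CD45.2+ sort would hold host or helper cells. The origin of the WT MPs is therefore not settled here. Nothing states that each sample came from a separate mouse, so the p-values below measure the spread between these samples, which may be technical.

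Gata1 and Gata2 are zinc-finger proteins that bind the same short DNA word, and Zfpm1 (FOG1) is the cofactor that docks on their amino-terminal finger. Tal1 or its paralogue Lyl1, paired with an E protein, joins a GATA factor through the bridging proteins Lmo2 and Ldb1 into a complex that occupies many erythroid enhancers. Gata2 acts in stem cells, early progenitors and mast cells, and in erythroid differentiation Gata1 takes over its sites, the exchange known as the GATA switch. Klf1, Nfe2 and Gfi1b act beside this complex in erythroid cells and megakaryocytes.

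The values are the deposited normalized counts. Reads recovered from the step size of each column numbered 5557718 to 8106140 per sample, and 3 reads correspond to 2.48 to 3.6 normalized counts. Of the genes joined in the fusion, Hoxa10 had 115.7 to 154.9 normalized counts in the NA MPs and 5.591 to 11.98 in the WT MPs, and Nup98 had 839.2 to 1025 and 566.5 to 627.6. Counts per gene cannot tell fusion transcripts from those of the endogenous genes. Of the genes that define the sort, Kit had 2811 to 3132 normalized counts in the NA MPs and 2983 to 3100 in the WT MPs, Ly6a (Sca1) had 12.23 to 23.14 over all samples, Cd3e was at 0, and Cd2, Cd8a and Ly6g had 3 reads or fewer in every sample. Itgam (Mac1), an antigen of the lineage mixture, had 419 to 548.9 in the NA MPs and 389.6 to 445.2 in the WT MPs and was higher in the NA MPs (log2 fold change 0.27, limma adjusted p = 0.00105), although the ranges overlapped. The NA MP replicate 1 library stood apart from the other NA MPs on the second principal component (20.3 against -8.93 to -3.01, 6.12% of the variance), and its values are given beside the results they touch.

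Of the 10 factors, 8 differed between NA and WT MPs and the direction was mixed: Gata2, Nfe2 and Lyl1 were higher in NA MPs, and Klf1, Gfi1b, Tal1, Gata1 and Zfpm1 were lower (limma, adjusted p under 0.05). Over all tested genes 34.3% passed as well (16.9% higher, 17.3% lower) and the median log2 difference was -0.0081. The median over the 10 factors was -0.27. Because the factors were chosen with earlier results of these data known, the shares over all genes are given for description only. In each of the 8 the 4 NA MP values lay outside the range of the 5 WT MP values, which held for 26.3% of all tested genes (13.5% above and 12.8% below). For groups apart in this way, the exact two-sided permutation test over the 126 ways to choose 4 of 9 samples always gives p = 0.0159. That is the smallest it can give, so it restates the separation and adds nothing to it. Lmo2 and Ldb1 did not pass. Fold changes are differences of log2(normalized count + 1), NA MP minus WT MP, with p-values adjusted over all tested genes. In sorted bulk samples, fewer cells of a type and less RNA per cell cannot be told apart.

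**Figure D1:**
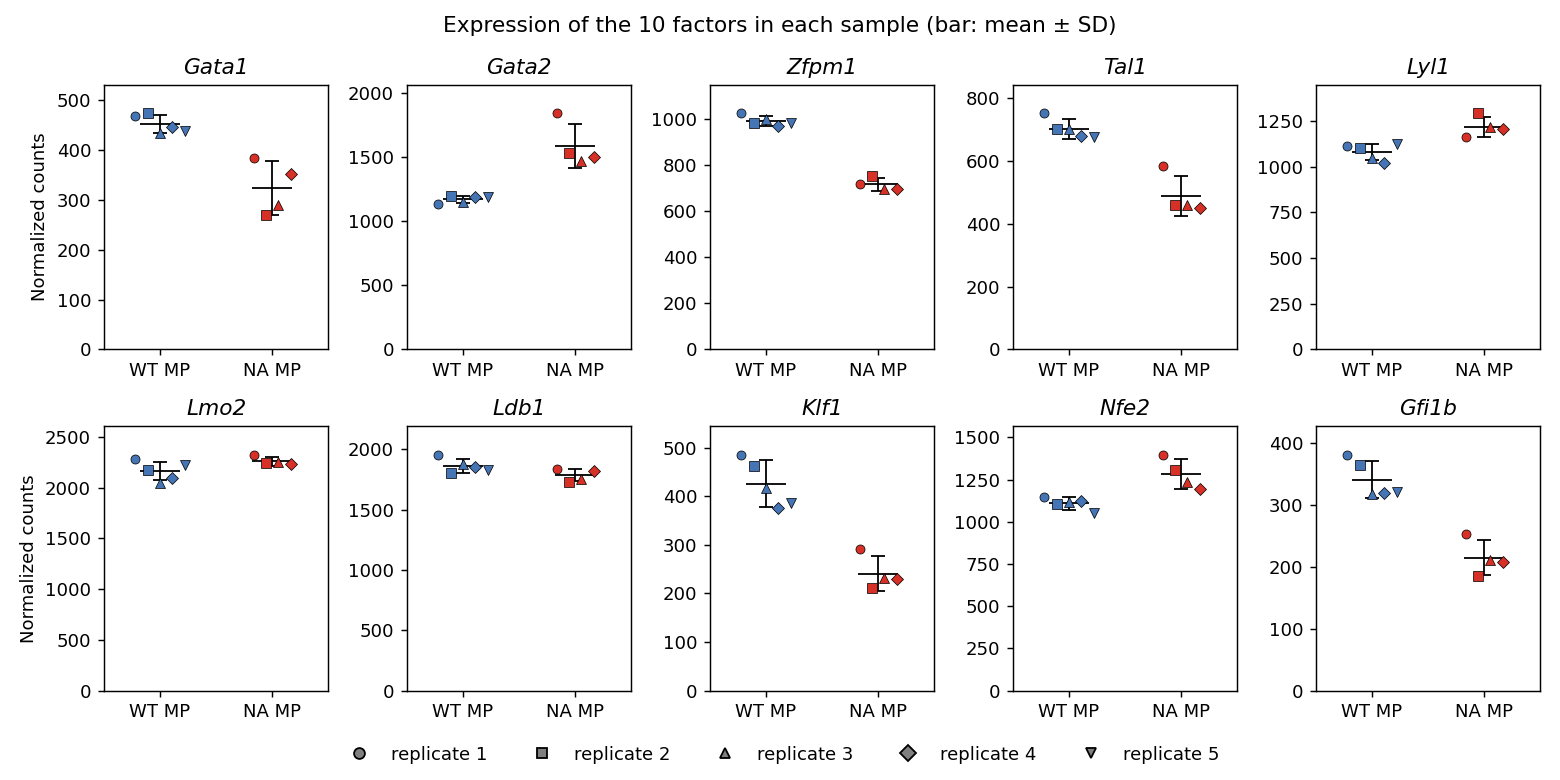
Normalized counts (vertical axis, from 0) of the 10 factors in each WT MP (blue, 5 samples) and NA MP (red, 4 samples) sample, with mean ± SD as black bars. Gata2, Lyl1 and Nfe2 lie higher in NA MPs, Gata1, Zfpm1, Tal1, Klf1 and Gfi1b lie lower, and the samples of both groups overlap for Lmo2 and Ldb1.

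The promoters are shown first, because the same network is known to act on its own genes. RefSeq windows on GRCm38.p6, running from 250 bases before to 50 after a start site, were at hand for 8 of the 10 genes, 12 windows in all, and for neither Lmo2 nor Nfe2. They were searched on both strands for the GATA word spelled AGATAA or TGATAA. It was present in 4 of the 12 windows, at Tal1, Klf1, Gfi1b and 1 of 3 windows of Ldb1. Over all 32851 windows 18.6% held it, and over the 11576 windows of tested genes 10.5%. The other Tal1 window held none. Klf1, Gfi1b and Tal1 fell and Ldb1 did not pass. Of the genes without a match, Gata1 and Zfpm1 fell, and Gata2 and Lyl1 rose. The bases before the start are printed for 3 genes with a match and for 1 window each of the 2 GATA genes, which hold none. They run 5′ to 3′ on the strand of the gene with the match in capitals (TTATCT and TTATCA are the word read on the other strand). The Klf1 stretch stops at the first transcribed base of the annotation, and the Gata1 window lies within the span of longer annotated transcripts.
Klf1, chr8:84901732-84901927, plus strand: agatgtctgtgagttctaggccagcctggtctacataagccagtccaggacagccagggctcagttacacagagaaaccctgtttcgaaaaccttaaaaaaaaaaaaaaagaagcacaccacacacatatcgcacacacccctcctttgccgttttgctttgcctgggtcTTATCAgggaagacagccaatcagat
Gfi1b, chr2:28621983-28622232, minus strand: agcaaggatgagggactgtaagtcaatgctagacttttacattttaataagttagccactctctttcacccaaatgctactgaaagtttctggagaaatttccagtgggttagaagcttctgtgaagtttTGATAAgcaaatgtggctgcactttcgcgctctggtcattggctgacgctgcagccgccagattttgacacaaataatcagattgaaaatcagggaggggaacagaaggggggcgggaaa
Tal1, chr4:115056176-115056425, plus strand: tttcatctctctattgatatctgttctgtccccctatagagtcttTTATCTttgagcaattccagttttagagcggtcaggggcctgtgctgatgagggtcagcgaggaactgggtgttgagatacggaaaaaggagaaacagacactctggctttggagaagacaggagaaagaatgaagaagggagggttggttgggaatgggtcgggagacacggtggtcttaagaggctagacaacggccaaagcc
Gata1, chrX:7967911-7968160, minus strand: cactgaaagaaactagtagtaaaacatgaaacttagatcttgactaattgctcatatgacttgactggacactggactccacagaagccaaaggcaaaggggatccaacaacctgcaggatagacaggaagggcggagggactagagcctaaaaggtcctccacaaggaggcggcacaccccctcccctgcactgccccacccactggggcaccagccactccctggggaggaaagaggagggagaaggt
Gata2, chr6:88193641-88193890, plus strand: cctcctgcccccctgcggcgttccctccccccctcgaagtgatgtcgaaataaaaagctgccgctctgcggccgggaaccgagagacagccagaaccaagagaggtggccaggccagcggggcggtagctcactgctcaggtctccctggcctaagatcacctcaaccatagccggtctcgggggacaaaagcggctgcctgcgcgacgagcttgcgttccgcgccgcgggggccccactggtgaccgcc
Counted from the RefSeq start site at 0, the match began at -80 in Klf1, -120 in Gfi1b and -205 in Tal1, and in Ldb1 there were matches at -240 and -200. The E-box CAGATG, a form that Tal1 complexes bind, was present in 2 of the 12 windows, in Klf1 at -59 and in Tal1 at 10, against 17.2% of all windows and 11.2% of those of tested genes. The wider E-box CANNTG, which includes CAGATG, was in 7 of 12 against 63.5% of windows of tested genes, and CCACACCC, a form of the Klf1 site, in 0 of 12 against 3.73%. These are matches of letters in short windows, and no binding was measured.

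Gata1 (ENSMUSG00000031162, GRCm38 chrX:7959260-7978071, minus strand), the master regulator of red cell and platelet formation, had 384.1, 268.9, 290.6 and 352.9 normalized counts in NA MP replicates 1 to 4. The WT MPs had 468.3, 474, 434, 447.3 and 438.9. Each NA MP sample lay under each WT MP sample, although the NA MP values were spread over a far wider range. The means were 324 ± 53.5 (SD, n = 4) and 452.5 ± 17.8 (SD, n = 5), 28.4% lower in NA MPs. The log2 fold change was -0.49 (SE 0.085, 95% interval -0.676 to -0.312, limma adjusted p = 0.000302).

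Gata2 (ENSMUSG00000015053, GRCm38 chr6:88193891-88207032, plus strand) went the other way. Its normalized counts were 1840, 1531, 1470 and 1502 in the NA MPs and 1136, 1193, 1146, 1191 and 1189 in the WT MPs. NA MP replicate 1 was the highest sample and the other NA MPs lay close together, all above the WT MPs. Mean levels were 1586 ± 172 (SD, n = 4) and 1171 ± 27.4 (SD, n = 5). The rise was 0.43 on the log2 scale (SE 0.052, 95% interval 0.322 to 0.541, limma adjusted p = 3.84e-06), and 0.36 without replicate 1.

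Zfpm1 (ENSMUSG00000049577, GRCm38 chr8:122282141-122337251, plus strand), which Gata1 needs for most of its erythroid and megakaryocytic work, fell with little scatter. NA MPs had 719.1, 753.2, 697 and 695.1 normalized counts against 1025, 984.8, 998.5, 970.6 and 982.1 in WT MPs. The highest NA MP sample was well under the lowest WT MP sample. Zfpm1 was 27.8% lower, a log2 fold change of -0.47 (SE 0.039, 95% interval -0.548 to -0.392, limma adjusted p = 1.75e-13).

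Tal1 (ENSMUSG00000028717, GRCm38 chr4:115056426-115071755, plus strand), the basic helix-loop-helix subunit of the complex, had 585.8, 461, 458.7 and 451.3 normalized counts in NA MPs and 752.2, 700.7, 702, 678.4 and 677.4 in WT MPs. Replicate 1 was again the highest NA MP sample, and the other NA MP replicates were nearly equal. The mean was 30.3% lower in NA MPs (489 ± 64.5 against 702 ± 30.3, SD). The log2 fold change was -0.53 (SE 0.062, 95% interval -0.657 to -0.399, limma adjusted p = 6.37e-07), and -0.62 without replicate 1.

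Lyl1 (ENSMUSG00000034041, GRCm38 chr8:84701457-84704715, plus strand), the closest relative of Tal1 and able to stand in for it in adult stem cells, rose modestly. NA MPs had 1161, 1292, 1218 and 1204 normalized counts and WT MPs 1115, 1101, 1045, 1022 and 1122. The groups did not overlap, but the lowest NA MP and the highest WT MP were close. The log2 fold change was 0.17 (SE 0.038, 95% interval 0.0968 to 0.249, limma adjusted p = 0.00031). After a correction for GC content and length it was 0.082 and did not pass (limma adjusted p = 0.0678). Lyl1 shares 4 exonic bases with Nfix on the other strand, and whether counting used strand is not given in the sources used here.

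The bridging proteins changed little. Lmo2 (ENSMUSG00000032698, GRCm38 chr2:103957986-103981878, plus strand), a LIM-domain protein without DNA binding of its own, had 2326, 2239, 2249 and 2228 normalized counts in NA MPs and 2277, 2178, 2050, 2097 and 2218 in WT MPs. The groups overlapped, and the difference of 0.064 (95% interval 0.00071 to 0.127, not adjusted) did not pass (limma adjusted p = 0.113); without WT MP replicate 1 it was 0.083 and passed (limma adjusted p = 0.0382). Ldb1 (ENSMUSG00000025223, GRCm38 chr19:46031570-46045214, minus strand), which dimerizes and so ties distant complexes together, had 1839, 1734, 1754 and 1823 against 1958, 1804, 1877, 1852 and 1833. These values overlapped as well, with a difference of -0.061 (95% interval -0.125 to 0.00336, limma adjusted p = 0.14). With the GC and length correction Ldb1 was lower by -0.13 and passed (limma adjusted p = 0.000909). Of its exonic bases, 177 are shared with Pprc1 on the other strand, which was lower in NA MPs (log2 fold change -0.21).

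Klf1 (ENSMUSG00000054191, GRCm38 chr8:84901928-84905291, plus strand), the activator of adult beta-globin and of much of the red cell program, showed the largest difference of the 10. NA MPs had 291.7, 210.3, 231.6 and 229.8 normalized counts, and WT MPs had 485.6, 462.9, 417.7, 375.2 and 385.8. All NA MPs were under all WT MPs, and both groups were scattered. Klf1 was 43.4% lower, with a log2 fold change of -0.82 (SE 0.097, 95% interval -1.03 to -0.611, limma adjusted p = 1.61e-05). Of all tested genes, 5.28% had a larger absolute change.

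Gfi1b (ENSMUSG00000026815, GRCm38 chr2:28609450-28621982, minus strand), a repressor required for red cells and platelets, followed Klf1. Its normalized counts were 253.3, 185, 210.4 and 208.3 in NA MPs and 380.9, 364.5, 316.9, 319.2 and 320.5 in WT MPs. The groups were apart, with replicate 1 again the highest NA MP sample. The log2 fold change was -0.67 (SE 0.075, 95% interval -0.822 to -0.518, limma adjusted p = 8.79e-09), and 6.87% of tested genes changed more.

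Nfe2 (ENSMUSG00000058794, GRCm38 chr15:103248212-103258403, minus strand), the large subunit of the NF-E2 dimer that drives platelet release, was higher. NA MPs had 1399, 1305, 1236 and 1192 normalized counts against 1150, 1105, 1117, 1123 and 1051 in WT MPs. The ranges did not meet. The log2 fold change was 0.21 (SE 0.039, 95% interval 0.129 to 0.287, limma adjusted p = 4.21e-05), and 30.3% of tested genes changed more.

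**Figure D2:**
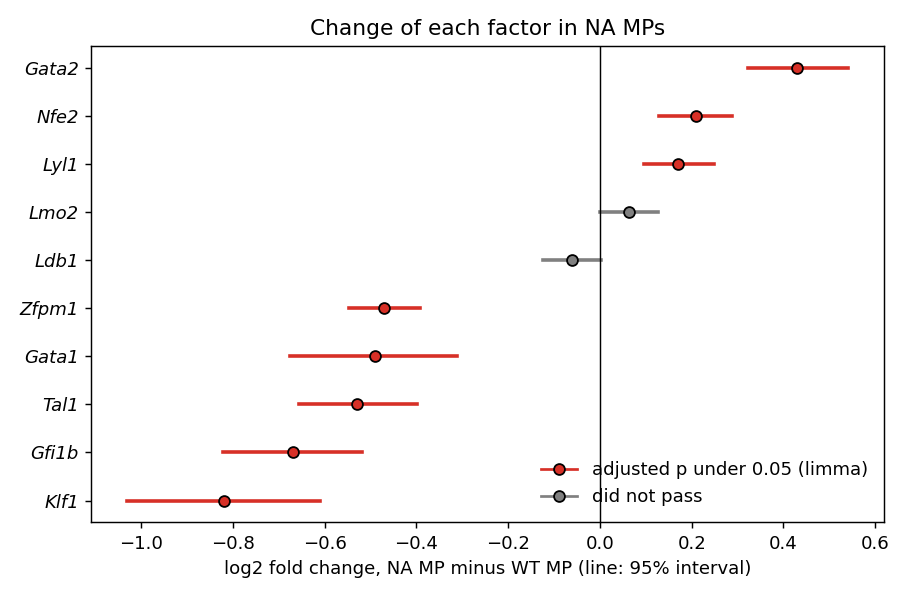
Log2 fold change of each factor (horizontal axis, NA MP minus WT MP, from 4 and 5 samples) with its 95% interval as a line; red points passed an adjusted p of 0.05 in limma and grey points did not. The changes run from -0.82 for Klf1 to 0.43 for Gata2, and the grey points are Lmo2 and Ldb1.

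Because Gata1 and Gata2 moved in opposite directions, their ratio within each sample separated the groups widely. The Gata2 to Gata1 ratio of normalized counts was 4.79, 5.69, 5.06 and 4.26 in the NA MPs and 2.43, 2.52, 2.64, 2.66 and 2.71 in the WT MPs. The mean ratio was 1.91 times higher in NA MPs, and 1.81 to 2 times with any single sample left out. Per length of exon sequence the ratio was 1.92 to 2.57 in NA MPs and 1.1 to 1.22 in WT MPs. The paralogues Lyl1 and Tal1 gave a like picture, since their ratio was 1.98, 2.8, 2.66 and 2.67 in NA MPs and 1.48 to 1.66 in WT MPs. Replicate 1 had the lowest Lyl1 to Tal1 ratio of the NA MPs but was still above every WT MP sample.

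Among the factors that fell, Klf1 alone had ratios to Gata1 that did not overlap between the groups. In NA and WT MPs respectively, Tal1 to Gata1 was 1.52 ± 0.182 and 1.55 ± 0.059 (SD, n = 4 and 5), and Zfpm1 to Gata1 was 2.26 ± 0.427 and 2.19 ± 0.0828. Both pairs of ranges overlapped, but Zfpm1 to Gata1 was more spread in NA MPs, where the 4 samples lay from 1.87 to 2.8, on either side of the WT MP range of 2.08 to 2.3. Klf1 to Gata1 was 0.651 to 0.797 in NA MPs and 0.839 to 1.04 in WT MPs, with no overlap. Gfi1b to Gata1 was 0.665 ± 0.0567 and 0.751 ± 0.0402, and 1 NA MP sample reached into the WT MP range. Ldb1 to Lmo2, the bridge proteins, was 0.774 to 0.818 in NA MPs and 0.826 to 0.916 in WT MPs. No test was made on these ratios.

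**Figure D3:**
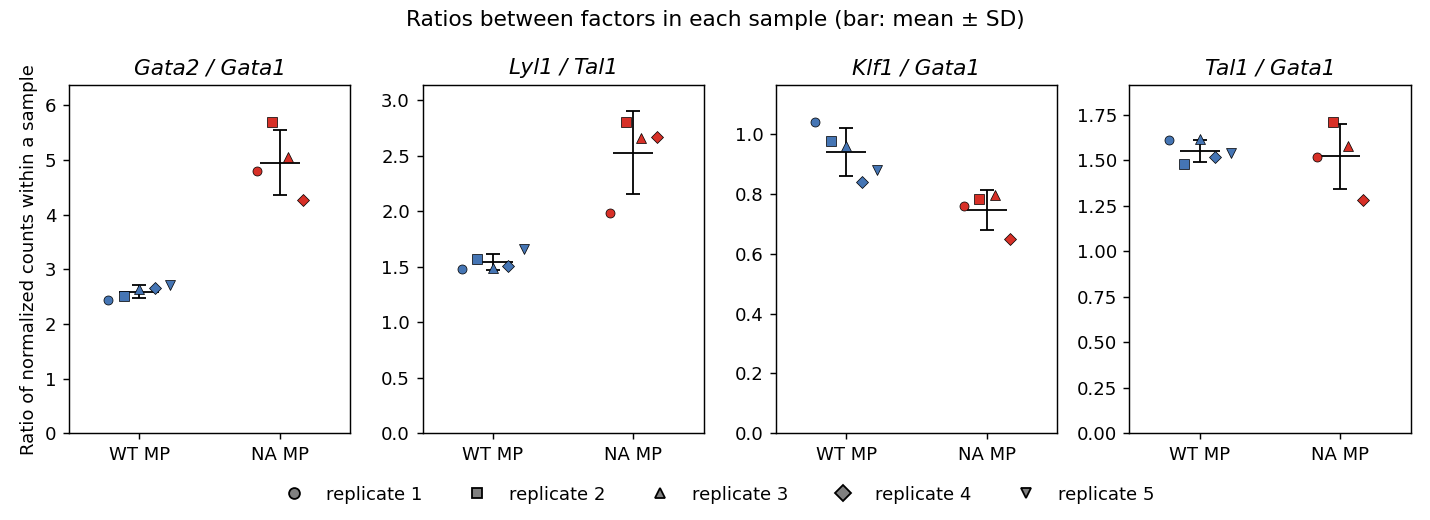
Ratios of normalized counts within each sample (vertical axes, from 0) for Gata2 to Gata1, Lyl1 to Tal1, Klf1 to Gata1 and Tal1 to Gata1, in WT MPs (blue) and NA MPs (red), with mean ± SD as black bars. Gata2 to Gata1 is 4.26 to 5.69 in NA MPs and 2.43 to 2.71 in WT MPs, whereas Tal1 to Gata1 overlaps between the groups.

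The NA MP samples varied more among themselves than the WT MPs. For 8 of the 10 factors the coefficient of variation was greater in NA MPs, the exceptions being Lmo2 and Ldb1. This was not particular to the factors. Over all tested genes, chi-square per degree of freedom between replicate pairs was 1.62 to 2.82 in NA MPs and 1.2 to 1.7 in WT MPs. The share of all tested genes with a greater coefficient in NA MPs was not counted. The coefficient was 16.5% in NA MPs and 3.93% in WT MPs for Gata1, and 13.2% and 4.32% for Tal1. Replicate 1 was the highest of the NA MPs for 8 of the 10 factors, again for genes that rose and genes that fell alike. How often it was the highest over all tested genes was not counted. For Gata2 and Nfe2, replicate 1 was thus the NA MP sample farthest from the WT MPs, and for Tal1, Gata1, Klf1 and Gfi1b the nearest to them.

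**Figure D4:**
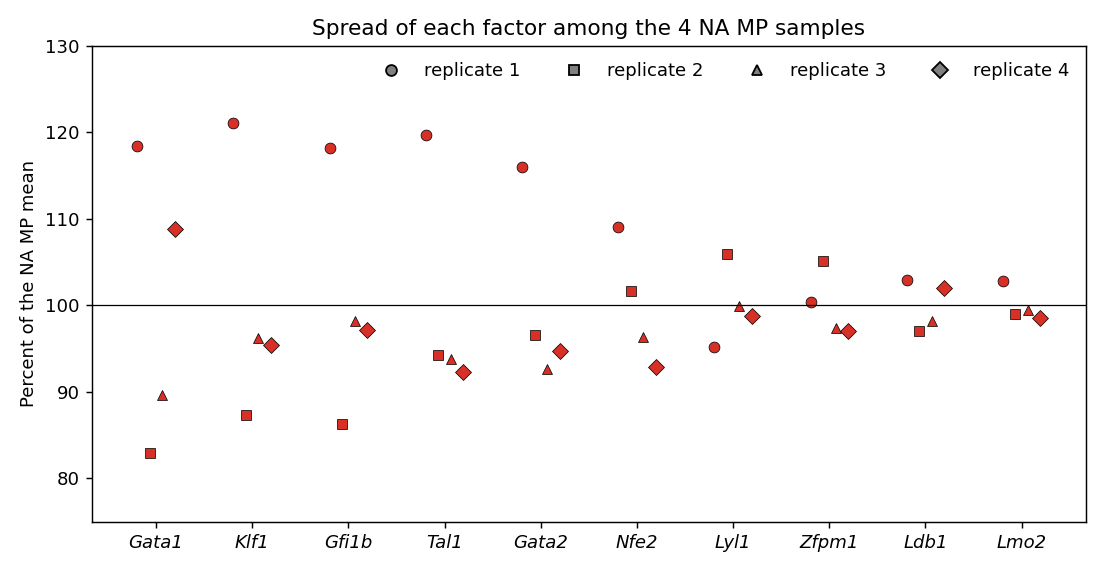
Normalized count of each factor in the 4 NA MP samples as a percent of their mean (vertical axis, 75 to 130), ordered by the coefficient of variation, which falls from 16.5% for Gata1 to 1.97% for Lmo2. Replicate 1 (circles) is the highest sample for 8 of the 10 factors.

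Levels of different genes can be compared only per length. Per kilobase of exon sequence, Lmo2 was the most abundant factor in WT MPs at 999 ± 42.1 normalized counts (SD, n = 5), followed by Lyl1 at 600.5 ± 24.9, Ldb1 at 404.8 ± 12.6 and Nfe2 at 371.2 ± 12.2. Zfpm1 (283.3 ± 5.97) and Klf1 (278.1 ± 31.3) did not differ beyond their spread. Gata2 followed at 216.9 ± 5.07, then Gfi1b (186 ± 16.4) and Gata1 (185.6 ± 7.3), which were indistinguishable, and Tal1 was last at 160.3 ± 6.92. In NA MPs, Gata2 at 293.7 ± 31.8 lay above Zfpm1 at 204.4 ± 7.72, with no overlap of their samples, where in WT MPs it lay below. Klf1 (157.4 ± 23) and Gata1 (133 ± 22) overlapped in NA MPs, as did Gfi1b (117.1 ± 15.5) and Tal1 (111.7 ± 14.7). With the length of the longest transcript instead, Gata2 was above Zfpm1 in both groups (327.9 against 292.7 in WT MPs), so this exchange of ranks depends on the length used. The WT MP levels of Lyl1, Ldb1 and Nfe2 were then 600.5, 595.2 and 590.6, within their spread. Under both lengths Tal1 was lowest and Lmo2 highest.

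The genes with profiles nearest to 4 of the factors were sought among 6352 others, by the root mean square difference in log2 over the 9 samples after setting the WT MP mean to 0. Nearest to Gata1 were Ammecr1, Fnbp1l, Abcb4 and Aplp2 (0.068 to 0.087). For Gata2 they were Sfxn3, Fut8, Samsn1 and Dapp1 (0.055 to 0.065), and for Tal1 Golm1, Optn, Mns1 and Fnbp1l (0.093 to 0.11). The list for Klf1 was C1qtnf12, Blvrb, Gfi1b and Atp1b2 (0.09 to 0.11), so 1 of the nearest to Klf1 was another of the 10 factors, and Blvrb is an enzyme of heme breakdown. The groups differ for all of these genes, and the samples share their libraries.

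The partners of the complex went both ways. Of 28 partner genes, 24 were tested, of which 8 were higher, 5 lower and 11 did not pass (54.2% called against 34.3% of all tested genes), with a median log2 difference of 0.0103. Of the E proteins that pair with Tal1 and Lyl1, Tcf4 rose (0.53, limma adjusted p = 4.06e-12, 571.2 to 646.9 against 400.4 to 425.3 normalized counts), Tcf3 rose slightly (0.1, limma adjusted p = 0.018), and Tcf12 was at -0.03 (limma adjusted p = 0.635). E proteins also act in B lymphocyte development. B cell genes were higher in NA MPs, as given below, and a link to the Tcf4 and Tcf3 values was not tested. Of the Ssbp proteins that stabilize Ldb1, Ssbp2 rose (0.22, limma adjusted p = 0.00377), Ssbp3 fell (-0.28, limma adjusted p = 2.33e-05) and Ssbp4 was at 0.041 (limma adjusted p = 0.54). Runx1, which meets the complex in megakaryocytes and stem cells, rose (0.13, limma adjusted p = 0.0111), although its groups overlapped (979.7 to 1005 normalized counts in NA MPs, 842.8 to 983.2 in WT MPs). Cbfa2t3 (Eto2), the corepressor of the complex, was at -0.018 (limma adjusted p = 0.814). The 3 largest rises among the partners that passed were those of Tcf4, Lmo1, a relative of Lmo2 (0.46, limma adjusted p = 0.0161), and Bach1, a repressor that competes with Nfe2 for small Maf proteins (0.27, limma adjusted p = 7.42e-05). Lmo1 was low and its groups overlapped (54.02 to 79.87 normalized counts in NA MPs, 33.45 to 57.33 in WT MPs). Maff had a larger difference that did not pass (0.8, limma adjusted p = 0.234). The 3 largest falls were those of Klf3, a repressor at Klf1 sites (-0.58, limma adjusted p = 1.82e-07), Ssbp3 and the deacetylase Hdac2 (-0.13, limma adjusted p = 0.00428). The paralogues Gata3, Ldb2, Runx1t1 and Zfpm2 were too low to test, with 10 reads or fewer, and Zfpm2 was at 0. Exons of Ssbp2, Cbfa2t3, Runx1 and Klf3 overlap a gene on the other strand.

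Genes of red cells, where this network is best known, were mostly lower in NA MPs. Of 37 erythroid genes, 36 were found and 33 tested, of which 26 fell, 3 rose and 4 did not pass (87.9% against 34.3% of all tested genes), and the median log2 difference was -0.8. The summed level of the list was 11156 to 13298 normalized counts in NA MPs and 18541 to 20003 in WT MPs. Among those that fell most were Sptb, the beta spectrin of the red cell skeleton (-1.43, limma adjusted p = 0.00145), and Rhag, a membrane channel of the Rh complex (-1.39, limma adjusted p = 1.18e-16). The 3 that rose were E2f2, a cell cycle factor (0.43, limma adjusted p = 0.00063), the adhesion molecule Icam4 (0.42, limma adjusted p = 0.00569), whose exons overlap a gene on the other strand, and the survival gene Bcl2l1 (0.33, limma adjusted p = 0.00482). Chosen after their values were seen, Epor, the erythropoietin receptor, fell (-0.99, limma adjusted p = 3.58e-14), and the transcripts of late red cells were scarce in both groups, with Hba-a2, Alas2 and Slc4a1 too low to test and Hbb-bs at 13.98 to 29.32 normalized counts over all samples. The list holds known targets of the factors, but it was set with earlier results of these data known, and the share of erythroid cells in each sort was not measured.

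The megakaryocyte genes were divided. Of 20, 15 were tested, of which 2 rose, 7 fell and 6 did not pass (60% called against 34.3% of all tested genes). The median was -0.275, and the sums of the list overlapped (2902 to 3368 normalized counts in NA MPs, 2971 to 3245 in WT MPs). Among those that fell were Thbs1, a granule protein (-1.77, limma adjusted p = 0.00403), and Rab27b, a granule transport protein known as an Nfe2 target (-1.13, limma adjusted p = 7.25e-05). Thbs1 was near the floor, with 0 to 17 reads over all samples, and passed the filter only through the WT MPs (0 to 7.077 normalized counts in NA MPs). Selp, which encodes P-selectin (0.62, limma adjusted p = 1.82e-10), and Itga2b, the CD41 integrin (0.19, limma adjusted p = 0.00316), rose. Tubb1, the classical Nfe2 target of platelets, had 3 reads or fewer in every sample. Nfe2 itself was higher, as given above.

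**Figure D5:**
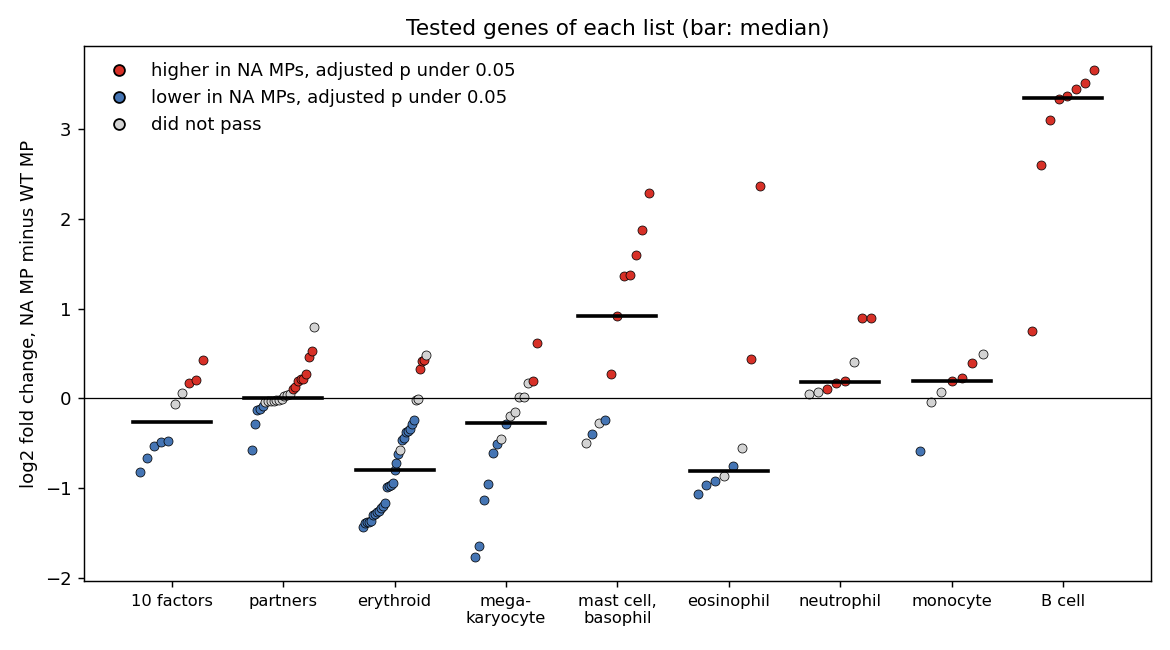
Log2 fold change (vertical axis, NA MP minus WT MP) of every tested gene of each list, red where higher and blue where lower at an adjusted p of 0.05 in limma, grey where it did not pass, with a black bar at the median. The erythroid list lies mostly below 0 (median -0.8), the mast cell and basophil list mostly above (0.916), and the 10 factors on both sides.

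Gata2 and Gata1 also act in mast cells, basophils and eosinophils, which such progenitors can form. Of 14 mast cell and basophil genes, 11 were tested, and 7 rose and 2 fell (81.8% called against 34.3% of all tested genes). The median was 0.916, with sums of 4050 to 4636 normalized counts in NA MPs and 2976 to 3238 in WT MPs. The largest rises were in Gzmb, a granule protease (2.29, limma adjusted p = 2.69e-23), Cma1, mast cell chymase (1.88, limma adjusted p = 4.96e-07), and Hpgds, a prostaglandin synthase (1.6, limma adjusted p = 0.000802). Cma1 and Hpgds were low, with 5 to 33 and 1 to 16 reads over all samples. On the WT MP values alone neither would have passed the filter on low values. Their highest WT MP values were 12.23 and 6.004 normalized counts, so their rises are given for description only. The 2 that fell were Il1rl1, the receptor for interleukin-33 (-0.4, limma adjusted p = 0.000226), and Hdc, which makes histamine (-0.24, limma adjusted p = 4.29e-07). Of the defining tryptases, Tpsab1 was at 0 and Tpsb2 had 1 read at most. Of 9 eosinophil genes 8 were tested, and 4 fell, led by the granule proteins Prg2 (-1.07, limma adjusted p = 0.00915), Ear1 (-0.97, limma adjusted p = 0.00171) and Prg3 (-0.92, limma adjusted p = 0.0242), while the surface receptors Ccr3 (2.37, limma adjusted p = 1.58e-05) and Siglecf (0.44, limma adjusted p = 8.22e-09) rose. Ear1 and Ccr3 were low, with 6 to 26 and 1 to 27 reads over all samples. Ear1 would not have passed the filter on the NA MP values alone (7.203 to 13.36 normalized counts). Nor would Ccr3 on the WT MP values alone (1.019 to 9.412). Of the 8 tested eosinophil genes 75% were called, against 34.3% of all tested genes. The sum of the eosinophil list was 958 to 1587 in NA MPs, lowest in replicate 1, and 1592 to 1980 in WT MPs.

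Markers of other cells moved as well, and their part in the changes of the 10 factors was not tested. Of the tested genes, 100% of the B cell, 62.5% of the neutrophil and 57.1% of the monocyte list were called, against 34.3% of all. All 8 B cell genes rose (median 3.35), among them Rag1 (3.66, limma adjusted p = 2.43e-05), Ebf1 (3.52, limma adjusted p = 3.93e-15) and Cd79a (3.45, limma adjusted p = 1.33e-17), with sums of 892 to 1712 normalized counts in NA MPs and 252 to 281 in WT MPs. On the WT MP values alone Ebf1 (7.938 to 16.01) and Pax5 (1.864 to 4.278), another of the 8, would not have passed the filter. Of 8 neutrophil genes 5 rose and none fell, Camp (0.9, limma adjusted p = 0.0136), Ngp (0.9, limma adjusted p = 0.0188) and Prtn3 (0.19, limma adjusted p = 0.00415) most, and the summed levels overlapped at 157303 to 173853 and 153323 to 159559. Of 7 monocyte genes Ly86 (0.4, limma adjusted p = 1.95e-07), Ly6c2 (0.23, limma adjusted p = 0.00867) and F13a1 (0.19, limma adjusted p = 0.00168) rose and Ccr2 fell (-0.59, limma adjusted p = 2.92e-13), with overlapping sums of 12261 to 14668 and 12031 to 12975. None of the 5 T cell genes was high enough to test, Cd3e and Cd3g were at 0, and their sums were 4.04 to 7.44 and 2.04 to 6.52.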

How the data were processed

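Poly(A) RNA of 4 NA MP and 5 WT MP samples was made into TruSeq libraries. Per the labels, bcl2fastq, RSEM and DESeq2 were used with build mm10; versions and strand setting are not given in the sources used here. The file is named as raw RSEM counts, but the deposited normalized counts (a signal, not whole reads) are expected counts the authors divided by 1 factor per sample: 97.6% to 98% of values up to 200 reads were whole multiples (within 0.05 reads) of a step that differs between columns, and the steps match median-of-ratios size factors. A count model had been planned, and was replaced for this reason by limma 3.58.1 (R 4.3.3, trend and robust options) on log2(value + 1), for 11987 genes with at least 10 normalized counts in at least 4 samples, adjusted by Benjamini-Hochberg (threshold 0.05). As there were 4 NA MP samples, a gene could pass this filter only through the group where it was high. In simulated data of 11987 genes with 200 changed, this comparison recovered 94.3% of changes of 1 and 59.4% of changes of 0.3 on the log2 scale, with 3.68% of calls false. The simulation used a fixed dispersion, equal in both groups. In the data the NA MPs were more spread and 34.3% of genes were called, so these rates may not hold for them. No pair of replicates agreed within sampling noise (chi-square per degree of freedom 1.2 or more).

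The members and lists were chosen with earlier results of these data known. Besides the members, the text names the 3 genes of each list with the largest rise and fall past the threshold, the E proteins, Cbfa2t3, Runx1 and Ssbp genes, and the 4 nearest profiles (mean log2 CPM of at least 5), except that some list genes are not reported here. Coordinates and lengths are from GENCODE M21 (GRCm38, the same assembly as mm10), gene names were paired for 32916 of 37980 IDs, and promoters are from RefSeq. The floor of 3 reads covers counting error only.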

Additional observations from a re-analysis of the deposited data

Results flagged for a closer look

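Within the 4 NA MPs, replicate 1 stood apart from the other samples of its group for 2 of the 10 factors. Its Gata2 value was 1840 normalized counts against 1470 to 1531 in the others, and its Tal1 value was 585.8 against 451.3 to 461. The gap to the nearest sample was 0.835 and 0.928 of the group's range, past Dixon's 95% limit for 4 samples. Of 24 groups of values examined 2 were past the limit, where chance gives about 1 in 20, or 1.2. This library also had the fewest recovered reads (5557718). Both genes passed the threshold with and without it.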

How the results depend on the processing

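Across 22 alternatives no factor changed direction. Changes of filter, threshold or robust option cannot alter a fold change. Leaving out 1 sample cannot reverse a factor whose groups did not overlap. Klf1, Gfi1b, Tal1, Zfpm1 and Gata2 passed under all of them, with log2 fold changes of -0.92 to -0.76, -0.75 to -0.60, -0.62 to -0.49, -0.63 to -0.46 and 0.36 to 0.47. Gata1 (-0.58 to -0.41) failed against a threshold of 1.2-fold (limma adjusted p = 0.103), as did Lyl1 and Nfe2, leaving 1 factor higher and 4 lower among 857 genes called (538 higher, 319 lower). That test also left 1 partner higher and 1 lower, 0 erythroid genes higher, 1 megakaryocyte gene higher, 0 mast cell genes lower, 1 eosinophil gene lower, and 0 neutrophil and 0 monocyte genes higher. With an adjusted p of 0.01, 1376 genes were lower, with 4 partners higher and 3 lower, 2 eosinophil genes lower and 3 neutrophil genes higher. With at least 10 normalized counts in every sample, fewer genes were tested, and 1 eosinophil gene was higher and 2 lower. Under that filter 5 mast cell and basophil genes and 6 B cell genes were higher. It left 5 megakaryocyte genes and 23 erythroid genes lower. The GC content and length correction added Ldb1 (-0.13) and left 1 megakaryocyte gene higher, with or without the block, and lost Lyl1 (0.082) without the block, whereas with it Lyl1 passed (0.11, limma adjusted p = 0.0215). Leaving out 1 sample gave 3 to 5 monocyte genes higher (5 without NA MP replicate 1) and 2 to 6 eosinophil genes lower (2 without NA MP replicate 3). Lmo2 was gained without WT MP replicate 1. The pseudocounts of 0.5 and 5, and limma with voom weights on the recovered reads (4091 genes called), were chosen after seeing the data and changed no call among the 10 factors.

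Replicate numbers pair nothing in the labels, and same-numbered samples did not deviate together (correlations -0.0204 to 0.0573, 1 of 4 NA MPs correlating best with its own number). With the replicate number as a block and WT MP replicate 5 left out, 3664 genes passed (1861 higher, 1803 lower) against 4107, with 3 factors higher and 5 lower. The tests planned with count models were not run, because the deposited values are not counts. The deposited values were not rounded, whereas the recovered reads were rounded for the fit with voom weights.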
